A study of Mus musculus with 4 samples.

Results

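Matricellular proteins are secreted proteins that sit in the extracellular matrix and act mainly on cells, through integrins and other surface receptors, rather than as load-bearing fibres. The 10 genes described here are the 4 thrombospondin genes Thbs1, Thbs2, Thbs3 and Thbs4, the CCN genes Cyr61 (now Ccn1) and Ctgf (now Ccn2), tenascin C (Tnc), periostin (Postn), Sparc, and Spp1, which encodes osteopontin. They were chosen by gene symbol from the 22802 rows of the expression table, and each had a row of its own.

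The libraries came from testes of C57BL/6J mice at postnatal day 10 with the mFLE-Cre transgene together with CAG-CAT-EGFP, a reporter that makes EGFP once Cre has acted. The labels do not spell out what drives this Cre. Dispersed interstitial cells were sorted into an EGFP-positive, laminin-negative population and an EGFP-positive, laminin-positive population, with 2 samples of each. Since the series' design describes a weak EGFP signal for the laminin-negative sort, laminin staining and EGFP level cannot be told apart. Both populations came from mice with both transgenes. The labels do not say that samples came from separate animals. The spread behind each p-value is that between these samples, shared in large part across genes, and may be technical.

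Values are FPKM, which are scaled by transcript length, so levels can be set side by side between genes. Summed FPKM ran from 491475 to 548986 per library, and read totals are not given. Of 7 interstitial fibroblast markers 6 were lower in laminin-positive cells and 1, Tcf21, higher (median log2 difference -5.31), with Tcf21 at 335 ± 8.03 FPKM (SD, n = 2) in the laminin-negative population and 471 ± 1.60 in the laminin-positive one. All 8 smooth muscle and peritubular myoid markers were higher in laminin-positive cells and all 7 Leydig markers were lower there. In bulk RNA, a smaller number of cells of a type and less RNA per cell cannot be told apart. Markers of other cells that the sort could hold were also present. The 11 macrophage genes found, of 12 listed, summed to 9.84 and 4.91 FPKM in the laminin-negative libraries, where Fcer1g was listed at 0 in library 2, and to 62.5 and 54.3 FPKM in the laminin-positive libraries. Endothelial markers passed as higher in 2 and lower in 2 of 5 tested cases. Cdh5 set their sum, at 165 and 173 FPKM in laminin-negative against 9.89 and 9.25 in laminin-positive libraries, and the other 8 summed to 9.18 and 8.45 against 16.9 and 16.1. Tie1 was listed at 0 in both laminin-negative libraries. Of 8 tested Sertoli markers 5 were higher in laminin-positive cells and 2 lower. All 9 Sertoli markers summed to 380.1 and 383 FPKM against 335 and 312, and without Ctsl and Clu, which hold most of that sum, to 22.3 and 21.4 against 45.8 and 37.2. Fshr was listed at 0 in laminin-negative library 1. Of 8 tested germ cell markers 6 were higher and 1, Kit, lower. All 9 germ cell markers summed to 48.8 and 50.4 FPKM against 27.9 and 27.6, and without Kit to 10.2 and 13.0 against 25.5 and 25.7. The part of these cells in the results below was not tested.

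Thrombospondins are multimers that bind calcium, other matrix proteins and the receptors CD36 and CD47. Thbs1 and Thbs2 encode trimers that restrain angiogenesis, and Thbs3 and Thbs4 encode pentamers. CCN proteins bridge integrins and growth factors. Their genes Cyr61 and Ctgf are induced within minutes to hours by serum, stretch and cell spreading, through the coactivators YAP and TAZ with TEAD factors and through SRF. SPARC binds collagen and is abundant in mesenchyme, periostin and tenascin C mark remodelling tissue, and osteopontin is made by bone cells, macrophages and many epithelia.

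Promoter sequences of the members are shown because Cyr61 is a known TEAD target and because the thrombospondin genes moved in opposite directions. The RefSeq promoter table (GRCm38.p6) held 8 of the 10 members, in 11 entries. Ctgf and Thbs1 had no entry. The 250 bases before the start were searched on both strands for CATTCC, the core of the TEAD site, and for the SRF site called the CArG box. CATTCC was found in 2 of the 11 entries, 1 each for Cyr61 and Thbs4, against 12.6% of the 32851 promoters of the table. So few entries do not show a difference from that share. None of the 8 members held a CArG box in this window, against 1.47% of all promoters, which says only that those letters are not there. In the following lines, 5′ to 3′ on the gene's strand, capitals mark CATTCC.
Cyr61 (chr3:145649986-145650235, minus strand): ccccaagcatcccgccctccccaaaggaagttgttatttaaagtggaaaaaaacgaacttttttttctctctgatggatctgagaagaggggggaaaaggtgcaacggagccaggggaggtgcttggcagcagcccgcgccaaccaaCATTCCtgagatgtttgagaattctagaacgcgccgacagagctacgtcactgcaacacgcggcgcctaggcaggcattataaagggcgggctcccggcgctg
Thbs4 (chr13:92794819-92795068, minus strand): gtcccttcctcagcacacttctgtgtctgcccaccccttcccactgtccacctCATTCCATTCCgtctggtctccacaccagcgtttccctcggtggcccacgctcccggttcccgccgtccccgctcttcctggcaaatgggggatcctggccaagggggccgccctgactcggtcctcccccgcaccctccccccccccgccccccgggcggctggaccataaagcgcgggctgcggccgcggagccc
Thbs3 (chr3:89214930-89215179, plus strand): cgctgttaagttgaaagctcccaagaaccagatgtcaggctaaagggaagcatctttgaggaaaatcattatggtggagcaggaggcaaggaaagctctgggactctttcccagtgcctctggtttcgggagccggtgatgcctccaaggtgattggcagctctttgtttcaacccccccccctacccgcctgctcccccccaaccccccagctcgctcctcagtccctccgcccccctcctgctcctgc
The match in Cyr61 begins 103 bases before the start. Those in Thbs4 begin 197 and 192 bases before it and overlap by 1 base, an arrangement of at least 2 matches that 1.02% of all promoters share. Thbs3, the member with the largest difference, has none in its window. Cyr61 was higher and Thbs4 lower in laminin-positive cells, so the members with a match did not share a direction. Whether TEAD factors act at these matches was not tested.

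The members spanned more than 4 orders of magnitude in level. Sparc, Cyr61 and Ctgf made up most of their summed FPKM, which was 2821 and 2822 in the laminin-negative and 4025 and 4022 in the laminin-positive libraries. That sum was 1.43-fold larger in laminin-positive cells, at 0.799% and 0.818% of all FPKM against 0.530% and 0.514%. Sparc alone held 59.5% ± 0.739 of the members' sum in the laminin-negative population and 41.9% ± 2.06 in the other. In laminin-negative cells the mean levels fell in the order Sparc, Cyr61, Ctgf, Thbs3, Thbs2, Postn, Thbs1, Thbs4, Spp1 and Tnc, and only Thbs4 and Spp1 overlapped as neighbours. In laminin-positive cells the order was Sparc, Cyr61, Ctgf, Thbs2, Thbs1, Thbs3, Postn, Spp1, Thbs4 and Tnc, with Thbs1 and Thbs3 overlapping.

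**Figure D1:**
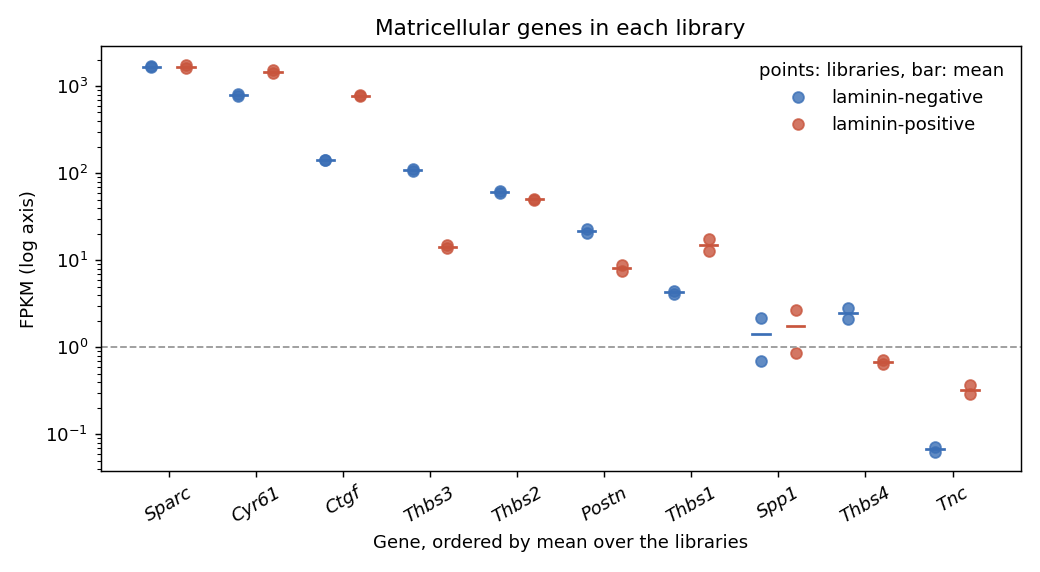
FPKM of each matricellular gene in every library on a log axis, with genes ordered by their mean. Points are libraries, short bars are means of 2, and the dashed line marks 1 FPKM. Sparc lies at the same height in both populations, Cyr61, Ctgf, Thbs1 and Tnc lie higher in laminin-positive cells, and Thbs2, Thbs3, Thbs4 and Postn lie lower.

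Of the 10 members, 9 reached 1 FPKM in at least 2 libraries and were tested with limma on log2(FPKM + 1), a scale that understates changes near or below 1 FPKM. Laminin-positive cells had 3 members higher (Ctgf, Thbs1 and Cyr61) and 4 lower (Thbs3, Postn, Thbs4 and Thbs2), and 2 did not pass (Sparc and Spp1). Across all 12348 tested genes 52.9% passed at an adjusted p of 0.05, with 26.6% higher and 26.3% lower, so passing the test was common in these data. An alternative scaled the libraries to equal FPKM sums, here and below with the row Rn45s left out of the sums. Under this scaling the calls over all genes became 4255 higher and 2382 lower, against 3288 and 3245. The median log2 difference of all genes moved from 0.01 to 0.11. The tested members had a median log2 difference of 0.01, the same as all tested genes. The populations did not overlap in 8 of the 10 members, among them the untested Tnc, against 77.2% of all tested genes. With 2 libraries a group, the smallest p that exact permutation allows is 0.333, and single genes were not tested that way.

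**Figure D2:**
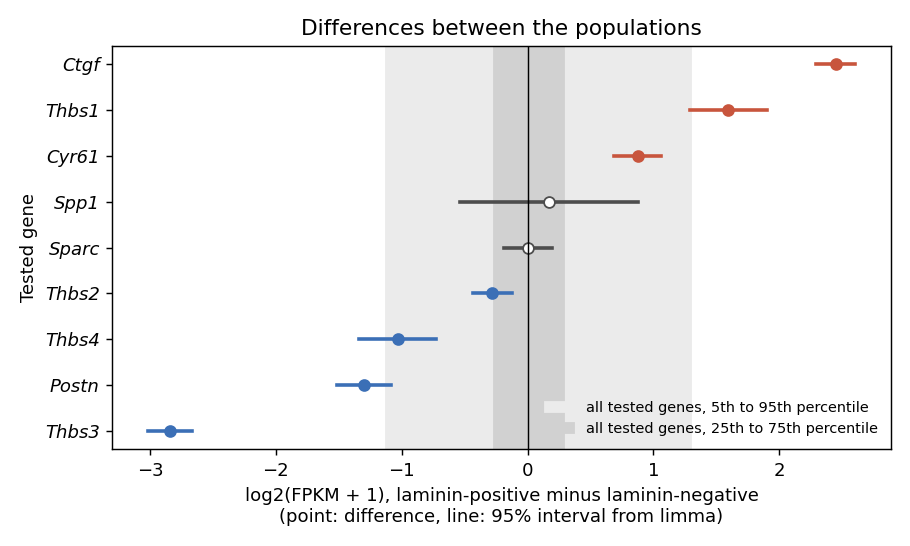
Difference in log2(FPKM + 1), laminin-positive minus laminin-negative, for the 9 tested members, with 95% intervals from limma. Filled red and blue points passed as higher and lower, open points did not pass, and grey bands span the 25th to 75th (-0.27 to 0.29) and 5th to 95th percentiles (-1.12 to 1.30) of all tested genes. Ctgf, Thbs1, Postn and Thbs3 lie beyond the wider band.

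Among the CCN genes, Ctgf showed the larger rise. Ctgf (chromosome 10, 24595442 to 24598683, GRCm38) encodes connective tissue growth factor, which promotes matrix production and mesenchymal cell adhesion. Its level was 141 and 142 FPKM in the laminin-negative libraries and 784 and 771 FPKM in the laminin-positive libraries. The libraries of a population were nearly equal and the populations lay far apart. Ctgf rose 5.48-fold (limma adjusted p = 7.27e-10), and the log2 difference was 2.45 with an SE of 0.07. It moved from rank 515 and 527 among the table's rows in laminin-negative libraries to 102 and 104 in laminin-positive libraries.

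Cyr61 (chromosome 3, 145646976 to 145649981), whose protein supports cell adhesion and vessel growth, was abundant in every library. It stood at 782 and 821 FPKM in laminin-negative and at 1522 and 1418 FPKM in laminin-positive libraries. The populations did not overlap, and the rise was 1.83-fold (log2 difference 0.87, SE 0.08, limma adjusted p = 7.00e-06). Cyr61 therefore exceeded Ctgf in every library, but by 5.55-fold and 5.76-fold in laminin-negative and by only 1.94-fold and 1.84-fold in laminin-positive libraries. Of the summed FPKM of the 6 CCN genes, Ctgf took 14.2% ± 0.299 in the laminin-negative and 33.2% ± 0.754 in the laminin-positive population, while Cyr61 went from 80.2% ± 0.436 to 62.8% ± 0.990. The family as a whole was 2.34-fold higher in laminin-positive cells.

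Among the thrombospondin genes, Thbs3 and Thbs1 moved in opposite directions. Thbs3 (chromosome 3, 89215180 to 89226837) was at 113 and 106 FPKM in laminin-negative and at 13.8 and 15.1 FPKM in laminin-positive libraries. This 7.60-fold fall was the largest difference of any member (log2 difference -2.84, SE 0.08, limma adjusted p = 5.72e-10). The annotation places Mtx1, a gene for a mitochondrial import protein, on the opposite strand across the whole of Thbs3. The library kit was directional, but the counting is not stated to use strand. Mtx1 was at 22.3 and 22.2 FPKM in laminin-negative and 18.8 and 20.0 FPKM in laminin-positive libraries (log2 difference -0.19, limma adjusted p = 0.0697). Whether reads of Mtx1 entered the Thbs3 values was not tested.

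Thbs1 (chromosome 2, 118111876 to 118127133) encodes the thrombospondin that activates latent TGF-beta and inhibits angiogenesis. It was at 4.46 and 4.10 FPKM in laminin-negative and at 17.6 and 12.7 FPKM in laminin-positive libraries. The laminin-positive libraries differed from each other more than the laminin-negative ones did, but both lay above them. The rise was 3.54-fold (log2 difference 1.60, SE 0.14, limma adjusted p = 3.27e-06), and it did not pass with no sharing of variance across genes (limma adjusted p = 0.0695, with values from 1.58e-10 to 0.0695 over the alternatives that tested the gene).

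Thbs4 (chromosome 13, 92751590 to 92794818), a thrombospondin of muscle, tendon and nerve, was low in both populations. Its level was 2.82 and 2.11 FPKM in laminin-negative and 0.649 and 0.723 FPKM in laminin-positive libraries, with no overlap. The log2 difference was -1.03 (SE 0.14, limma adjusted p = 9.38e-05), a call that ended with no sharing of variance across genes (limma adjusted p = 0.0712, with values from 2.46e-05 to 0.0712 over the alternatives that tested the gene). Thbs2 (chromosome 17, 14665500 to 14694235), which restrains vessel growth and collagen fibril assembly, differed least of the members that passed, at 62.3 and 59.6 FPKM against 49.7 and 50.4 FPKM. The log2 difference of Thbs2 was -0.28, with a 95% interval from -0.44 to -0.12 and a limma adjusted p of 0.00739. Its call was lost with equal FPKM sums (limma adjusted p = 0.115), without laminin-positive replicate 1 (0.0529) and when no variance was shared across genes (0.0581), with values from 0.00410 to 0.115 over the alternatives that tested the gene.

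The leading thrombospondin was Thbs3 in laminin-negative and Thbs2 in laminin-positive cells, and both were lower in the latter. Thbs3 held 61.7% ± 0.0243 of the summed FPKM of the 5 family genes (Comp included) in laminin-negative cells and 18.0% ± 1.59 in laminin-positive cells. Thbs2 went from 34.3% ± 0.280 to 62.3% ± 2.19, although its own level fell slightly. Thbs1 went from 2.41% ± 0.0478 to 18.8% ± 3.89. The ratio of Thbs3 to Thbs2 was 1.81 and 1.79 in laminin-negative and 0.277 and 0.299 in laminin-positive libraries. The family's summed FPKM was 183 and 173 in laminin-negative libraries and 81.7 and 78.9 in laminin-positive libraries, a 2.21-fold difference. The fifth family member Comp, a cartilage matrix gene, stayed below 1 FPKM in every library and was not tested.

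**Figure D3:**
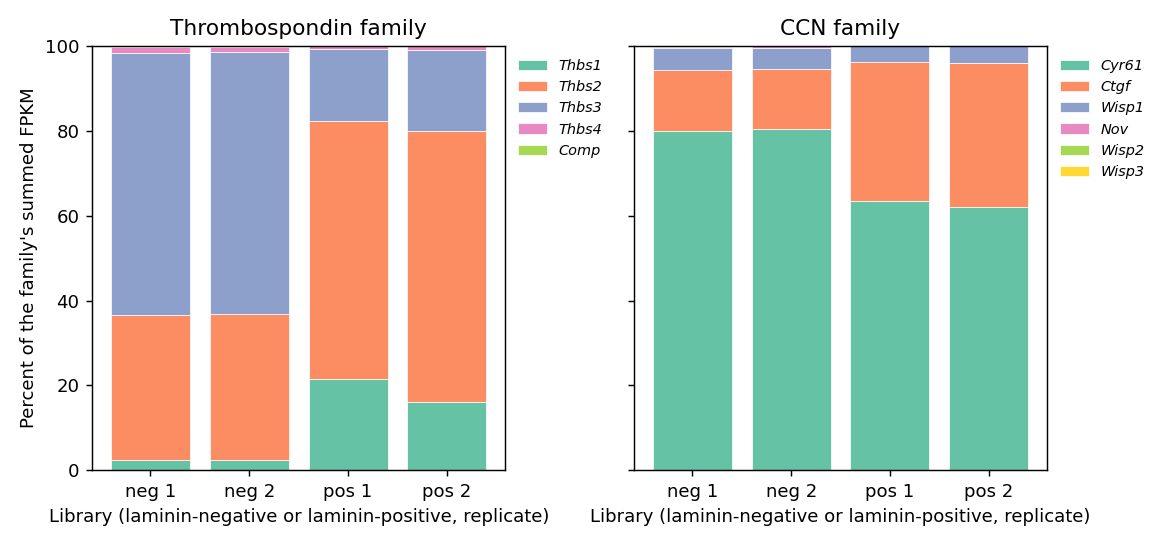
Percent of each family's summed FPKM held by each gene in every library, for the thrombospondin genes with Comp (left) and the CCN genes (right). Thbs3 is the largest segment in both laminin-negative libraries (61.7%) and Thbs2 in both laminin-positive libraries (60.8% and 63.9%), and the Ctgf segment is 14.4% and 14.0% against 32.7% and 33.8%.

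Sparc (chromosome 11, 55394500 to 55423183) was the most abundant member and did not pass the test. Its level was 1692 and 1663 FPKM in laminin-negative and 1627 and 1743 FPKM in laminin-positive libraries. The laminin-positive libraries lay on either side of the laminin-negative ones. The log2 difference was 0.01, with a 95% interval from -0.18 to 0.20 (limma adjusted p = 0.960). Under quantile normalization, which forces the same distribution on every library, it became 0.36 and passed (limma adjusted p = 0.00426, with values from 0.00426 to 0.973 over the alternatives that tested the gene).

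Postn (chromosome 3, 54361109 to 54391037), a collagen-binding protein of fibroblasts and periosteum, was lower in laminin-positive cells. It was at 20.7 and 22.7 FPKM in laminin-negative and at 7.63 and 8.82 FPKM in laminin-positive libraries, so the populations did not overlap. The fall was 2.64-fold (log2 difference -1.30, SE 0.10, limma adjusted p = 1.12e-06). Its relative Tgfbi, which shares the fasciclin domains of periostin, fell from 90.9 ± 2.38 to 28.0 ± 0.110 FPKM. Periostin held 18.8% and 19.7% of the FPKM of this pair in laminin-negative and 21.5% and 23.9% in laminin-positive libraries.

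Tnc and Spp1 were near the bottom of the range. Tnc (chromosome 4, 63959785 to 64047015), a large glycoprotein of developing and healing tissue, was at 0.0716 and 0.0630 FPKM in laminin-negative and at 0.289 and 0.365 FPKM in laminin-positive libraries. Both laminin-positive values were the higher ones, but all 4 lay below the filter and the gene was not tested. Without the filter its log2 difference was 0.31 (limma adjusted p = 0.00795), a level so low that counting error of unknown size adds to it. The other tenascin of these cells, Tnxb, fell from 25.9 ± 3.85 to 7.96 ± 0.382 FPKM and held 94.3% or more of the tenascin FPKM on average in each population.

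Spp1 (chromosome 5, 104435118 to 104441050) varied more within the populations than between them. It was at 2.19 and 0.698 FPKM in laminin-negative and at 2.68 and 0.867 FPKM in laminin-positive libraries. The libraries numbered 1 were the high ones in both populations. The log2 difference was 0.17, with a 95% interval from -0.54 to 0.88 (limma adjusted p = 0.676). Without laminin-positive replicate 2 it became 0.66 and passed (limma adjusted p = 0.0251, with values from 0.0251 to 0.867 over the alternatives that tested the gene), and over the libraries left out in turn it ran from -0.32 to 0.66. The macrophage list summed to 9.84 FPKM in laminin-negative library 1 and 4.91 in library 2, and to 62.5 and 54.3 FPKM in the laminin-positive libraries. Within each population those sums, like Spp1, were higher in library 1, while the difference between populations in the sums was not seen in Spp1. The part of macrophages in Spp1 was not tested.

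Annotated transcripts without a row of their own overlap exons of 4 further members. Thbs1 overlaps Gm29233, Ctgf overlaps Gm15270 and Tnc overlaps 8030451A03Rik, each on the opposite strand, and Spp1 overlaps Gm42793 on its own strand. Whether such reads entered the members' values was not tested.

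A list of 20 other matricellular genes and relatives also went both ways. Of its 9 tested genes, 3 were higher in laminin-positive cells, 4 lower and 2 did not pass (77.8% called against 52.9% of all genes), with a median log2 difference of -0.03 against 0.01 for all tested genes. The 4 that fell were Nov, Tgfbi, Tnxb and Smoc2. Nov (Ccn3), a CCN gene that often opposes Ctgf, fell from 3.45 ± 0.119 to 0.0234 ± 0.00947 FPKM, so the CCN genes did not move together. At that level the size of its ratio is uncertain. Smoc2, a calcium-binding relative of Sparc, fell from 590.0 ± 6.56 to 226 ± 1.32 FPKM, with a log2 difference of -1.38 (SE 0.07) and a limma adjusted p of 5.32e-08. The 3 that rose were Wisp1, Spock2 and Fstl1, and Sparcl1 and Smoc1 did not pass; apart from Fstl1, the most abundant gene of the list, these were named after their values were seen. Fstl1, a secreted relative of Sparc, rose from 359 ± 15.5 to 543 ± 27.3 FPKM, and its call and that of Spock2 ended when no variance was shared across genes. Wisp1 (Ccn4) rose from 51.1 ± 0.586 to 91.9 ± 2.32 FPKM. Although Smoc2 fell and Fstl1 and Spock2 rose, the summed FPKM of the 8 Sparc relatives, Sparc included, was 3076 ± 25.7 in the laminin-negative and 3044 ± 141 in the laminin-positive population.

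Receptors for these proteins were mostly higher in laminin-positive cells. Of 21 tested receptor genes of 26 listed, 14 rose, 4 fell and 3 did not pass (85.7% called against 52.9% of all genes, median log2 difference 0.56 against 0.01). The largest rise was that of Itga8, the integrin alpha 8 chain that binds osteopontin, tenascin C and nephronectin, from 0.659 ± 0.0693 to 33.3 ± 1.32 FPKM, with a log2 difference of 4.37 (SE 0.10) and a limma adjusted p of 1.67e-10. The laminin-binding integrin chains Itga7 and Itga3 rose from 6.57 ± 0.439 to 78.0 ± 3.31 FPKM and from 0.720 ± 0.0454 to 15.6 ± 0.554 FPKM. Both are among the 14 that rose, and the populations were sorted on laminin staining. The relation of these rises to the sort was not tested. Stab1, a scavenger receptor that takes up SPARC and is made by macrophages and sinusoidal endothelium, rose from 0.347 ± 0.0109 to 4.54 ± 0.0276 FPKM, beside the higher macrophage sums given above. Calr, the most abundant gene of the list, was at 298 ± 12.0 and 283 ± 7.41 FPKM and did not pass (limma adjusted p = 0.393).

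The receptors that fell were Cd47, Cd44, Cd36 and Cacna2d1, named after their values were seen. Cd47, the thrombospondin receptor that also signals to phagocytes, fell from 76.6 ± 0.0805 to 25.4 ± 1.44 FPKM, with a log2 difference of -1.56 (SE 0.08) and a limma adjusted p of 3.50e-08. Cd36, which binds the type 1 repeats of Thbs1 and Thbs2, fell from 1.92 ± 0.0308 to 0.777 ± 0.285 FPKM, a call that ended with no variance shared across genes, as did that of Cacna2d1. Cd44, a receptor for hyaluronan and osteopontin, fell from 5.37 ± 0.215 to 0.604 ± 0.0910 FPKM.

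Because Cyr61 and Ctgf are targets of YAP and TAZ, the genes of that pathway were counted. Of 12 tested machinery genes, 8 were higher in laminin-positive cells (66.7% called against 52.9% of all genes) and 0 lower by limma, also 0 at an unadjusted p under 0.05 and 0 when no variance was shared across genes. The list held genes that restrain YAP and TAZ beside the coactivators, so its count does not give a direction of activity. Among the 8, the restraining genes Lats1, Nf2 and Stk4 rose by log2 differences of 0.32, 0.35 and 0.29, and Yap1 by 0.33. Yap1 and these restraining genes were named after their values were seen. Wwtr1, which encodes TAZ, rose from 15.8 ± 0.744 to 37.8 ± 0.978 FPKM. The TEAD genes Tead3 and Tead1 rose from 20.9 ± 2.38 to 44.2 ± 1.35 FPKM and from 9.31 ± 1.41 to 17.2 ± 1.36 FPKM. Vgll3, a TEAD cofactor, rose from 22.8 ± 4.05 to 54.4 ± 2.29 FPKM. The count was 4 without laminin-positive replicate 2 and 1 when no variance was shared across genes, and that setting ended the calls of Vgll3, Tead3 and Tead1.

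Known YAP and TAZ targets other than the members went both ways. Of 18 tested, 11 rose, 4 fell and 3 did not pass (83.3% called against 52.9% of all genes, median log2 difference 0.38). Ajuba, a LIM protein of cell junctions, rose from 3.52 ± 0.215 to 12.4 ± 0.467 FPKM, the phosphatase gene Ptpn14 from 2.35 ± 0.492 to 8.18 ± 0.139 FPKM, and the membrane repair gene Myof from 5.55 ± 0.244 to 12.0 ± 0.231 FPKM. Igfbp3, an IGF-binding protein, fell from 42.5 ± 0.316 to 1.59 ± 0.238 FPKM, the largest difference of the list (log2 difference -4.07, SE 0.10, limma adjusted p = 2.63e-10). Axl, a receptor kinase and the most abundant target, rose only from 91.0 ± 5.17 to 111 ± 3.03 FPKM (limma adjusted p = 0.00815). The rising count was 3 when no variance was shared across genes, and that setting ended the calls of Ptpn14 and Axl. Axl also lost its call without laminin-positive replicate 2 (limma adjusted p = 0.0687, with values from 9.47e-04 to 0.114 over the alternatives that tested the gene).

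SRF and immediate early genes were examined because Cyr61 and Ctgf also respond to stimuli such as tissue dissociation. Of 21 tested, 8 rose, 2 fell and 11 did not pass, which is 47.6% called against 52.9% of all genes (median log2 difference 0.15). This count describes mainly immediate early genes, and the list also held the heat shock genes Hspa1a and Hspa1b, of which Hspa1b was called lower. Smooth muscle targets of SRF such as Acta2 were counted apart with the smooth muscle markers. All 8 of those markers were higher, with a median log2 difference of 5.32. Fos, the most abundant, stood at 2819 and 2925 FPKM in laminin-negative and 3209 and 3161 FPKM in laminin-positive libraries and did not pass (limma adjusted p = 0.191), though it passed with equal FPKM sums (0.00610) and under quantile normalization (0.00127), with values from 0.00127 to 0.567 over the alternatives that tested the gene. Fos thus exceeded Cyr61 and Ctgf in every library of both populations. The transcription factor Klf4 fell from 501 ± 23.2 to 246 ± 13.1 FPKM and Egr3 rose from 10.1 ± 0.979 to 20.2 ± 5.13 FPKM, a call that ended with no variance shared across genes. Srf itself rose from 29.1 ± 3.33 to 87.6 ± 4.94 FPKM, and its smooth muscle coactivator Myocd from 1.55 ± 0.389 to 38.8 ± 0.329 FPKM, with a log2 difference of 3.97 (SE 0.11) and a limma adjusted p of 7.28e-10. The part of dissociation in the levels of Cyr61 and Ctgf was not tested.

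TGF-beta genes were counted because Thbs1 activates latent TGF-beta and Ctgf, Postn and Tnc are among its targets. Of 13 tested, 9 rose, 2 fell and 2 did not pass (84.6% called against 52.9% of all genes, median log2 difference 0.35). Ltbp2, a microfibril protein of the latent TGF-beta binding family, rose from 1.73 ± 0.0742 to 76.6 ± 4.08 FPKM, with a log2 difference of 4.83 (SE 0.09) and a limma adjusted p of 5.78e-11. Skil, a feedback inhibitor induced by the pathway, rose from 4.63 ± 0.245 to 19.4 ± 0.696 FPKM. The ligand gene Tgfb1 rose from 8.01 ± 0.814 to 17.0 ± 1.12 FPKM and the receptor gene Tgfbr1 from 6.78 ± 0.252 to 15.0 ± 0.910 FPKM. Ligand and receptor genes did not all rise. The receptor gene Tgfbr2 fell from 33.5 ± 0.699 to 20.0 ± 0.359 FPKM. The ligand gene Tgfb2, counted above with the YAP and TAZ targets and not in this list, fell from 10.5 ± 0.979 to 5.87 ± 0.408 FPKM. Tgfbr2 and Tgfb2 were named after their values were seen. Ltbp4, the most abundant, was at 1676 ± 13.8 and 1973 ± 64.8 FPKM (limma adjusted p = 0.0385), a call lost without either laminin-positive library (0.329 without replicate 1 and 0.192 without replicate 2, with values from 7.76e-05 to 0.329 over the alternatives that tested the gene). The rising count was 3 when no variance was shared across genes, and the calls of Tgfb1 and Ltbp4 were among those lost. Ctgf and Thbs1 were higher and Postn lower in the same laminin-positive libraries.

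**Figure D4:**
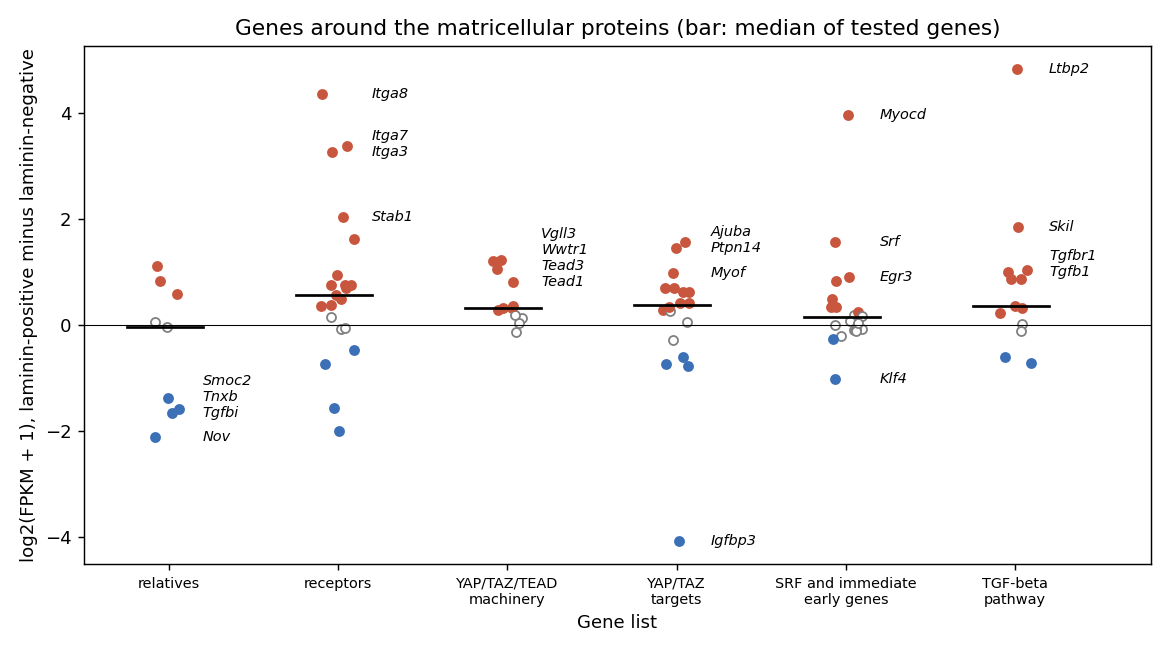
Difference in log2(FPKM + 1), laminin-positive minus laminin-negative, for the tested genes of the 6 lists around the matricellular proteins. Red and blue points passed as higher and lower, open points did not pass, black bars are list medians and the 4 largest passing differences of each list are named. Medians run from -0.03 (relatives) to 0.56 (receptors).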

How the data were processed

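RNA was sequenced from 2 laminin-negative and 2 laminin-positive samples with a directional library kit, per the labels' protocols. The authors deposited FPKM per gene and library, per the file headers; TopHat2 (2.1.1) and Cufflinks (2.2.1) are listed, with no role, per the submitters' processing notes. Build, annotation and strand setting: not given in the sources used here. By symbol, 21203 rows were set against GENCODE M21 (GRCm38) and 99.6% overlapped, so GRCm38 positions are printed.

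Genes with at least 1 FPKM in at least 2 libraries (12348) were tested on log2(FPKM + 1) with limma 3.58.1 in R 4.3.3, with moderated variances, an intensity trend and no replicate block, two-sided, with Benjamini-Hochberg adjustment over all tested genes. The fit has 2 residual degrees of freedom, with 8.21 prior degrees (median). A run on simulated data required most set log2 differences of 2 to be recovered, but put no limit on false calls. Depth is unknown, so no counting interval is given. Fold values are ratios of mean FPKM. Spreads are SD with n = 2.

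The members and gene lists were chosen with earlier results of these data known. All members are named; of each other list, the 4 largest differences past the threshold and the most abundant gene. Alternatives changed the pseudocount, filter, scaling, variance model, block and libraries. Protein sequence features, which had been planned, were not analysed here.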

Additional observations from a re-analysis of the deposited data

How the results depend on the processing

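With 14 alternatives, Ctgf, Cyr61, Postn and Thbs3 kept their direction and call in all. When no variance was shared across genes, 2557 genes were called (1346 higher and 1211 lower), 2 members (Thbs3 and Postn) were called lower, and Thbs1 (log2 difference 1.60, limma adjusted p = 0.0695), Thbs4 (-1.03) and Thbs2 (-0.28) no longer passed; the cause was not tested. Of the lists, that setting left 1 higher relative, 9 higher and 2 lower receptors, 1 higher YAP and TAZ machinery gene, 3 higher YAP and TAZ targets, 3 higher and 1 lower SRF or immediate early genes, and 3 higher TGF-beta genes. Thbs2 was at -0.16 with equal FPKM sums, and Sparc at 0.36 under quantile normalization.

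Leaving out each library in turn moved Spp1 from -0.32 to 0.66 and Thbs2 from -0.31 to -0.25, the higher YAP and TAZ machinery genes from 4 to 8, and the lower SRF or immediate early genes from 1 to 3. The last count was also 1 with no filter, with equal FPKM sums, under quantile normalization and with no intensity trend. With no filter 9 relatives were lower, since more were tested, and with a mean of at least 5 FPKM 2 receptors were lower, since fewer were.

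The replicate block changed no member's call (3376 genes higher and 3343 lower in all). Same-numbered samples deviated with a correlation of only 0.00809, so the number was not taken as a pairing.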
